A study of Mus musculus with 6 samples.

Results

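Tubulin isotypes are the alternative alpha and beta subunits of microtubules, and 10 of their genes are described here, the beta tubulins Tubb2a, Tubb2b, Tubb3, Tubb4a, Tubb4b, Tubb5 and Tubb6 and the alpha tubulins Tuba1a, Tuba1b and Tuba4a. Their members on the array were all probe sets whose platform annotation gave 1 of these symbols and no other, which were 19 of the 45101 probe sets and represented 9 of the 10 genes. Tuba1b is not analysed here as a gene, because its probe set in the annotation also carries a second symbol. In all, 3 probe sets named a listed tubulin together with another gene and were left out. Of the 19 probe sets, 5 are of the type marked x, in which some probes match other transcripts, and 1 is of type s, whose probes match transcripts of different genes, so these can cross-hybridise with related tubulins. A further 2 are of type a, whose probes match several transcripts of the same gene, and 11 carry no such mark.

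Microtubules are hollow polymers of alpha and beta tubulin dimers, and mammals encode both subunits in families of closely related genes, the isotypes. The isotypes differ mainly in their C-terminal tails, which project from the microtubule and are the sites of glutamylation, glycylation and the removal or return of a tyrosine. In the developing brain, dividing precursors use microtubules for the spindle, while young neurons use them for migration and for the growth of axons and dendrites. Tubb3 is the beta isotype most specific to neurons, Tubb2a, Tubb2b and Tuba1a are abundant in developing brain, and Tubb5, Tubb4b and Tuba1b are widely expressed, dividing cells included.

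The samples were EGFP-positive cells sorted from the rhombomere 1 and isthmus region of Swiss Webster mouse embryos at E14.5. All embryos carried Atoh1-CreER, a tamoxifen-dependent recombinase named for the proneural gene Atoh1, and the EGFP reporter RCE. Dams received tamoxifen by gavage (4 mg per 35 g) at E10.5 for the early group or at E13.5 for the late group, so that cells expressing Atoh1 around the dose became marked. Each group had 3 samples, each on its own Affymetrix mouse 3′ expression array. Whether a sample pooled embryos or litters is not given in the sources used here, so p-values reflect the scatter among 3 arrays a group, which may be technical in part and limits the precision. The day of labelling and the time from labelling to collection changed together.

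Values are MAS5 signals, an intensity per probe set in arbitrary units that compares 1 probe set between arrays but not different probe sets with each other. The median signal of an array was 97.7 to 112 units. Late arrays resembled each other more (Spearman 0.938 to 0.945 across probe sets) than early arrays did (0.874 to 0.893). The 3′ to 5′ signal ratio of the Actb control, a sign of RNA quality, was 17.4 to 26.2 on early and 12.9 to 16.1 on late arrays. That of the Gapdh control overlapped, at 10.6 to 13.2 on early and 9.47 to 12.1 on late arrays. Their part in the results below was not tested. Of 8 measured markers of cycling progenitors 6 had higher signals after late labelling and 0 after early labelling (limma, with the same counts at an unadjusted p under 0.05), and their summed signal ran from 5083 to 6701 units in early and from 38525 to 40791 units in late arrays. Of 10 markers of postmitotic neurons 5 had higher signals after early labelling and 0 after late labelling (8 and 1 at an unadjusted p under 0.05), with sums of 102277 to 108960 against 52484 to 58536 units. Of 10 markers of the Atoh1 lineage 9 were tested, with 5 higher after late and 2 after early labelling, and Lmx1a, a rhombic lip factor, stayed at or below the array median on all 6 arrays. In such sorted bulk samples, a change in the make-up of the cells and a change in RNA per cell cannot be told apart.

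The stretches of DNA directly upstream of several isotype genes are shown because these genes, although they encode nearly the same protein, did not share 1 pattern between the groups. Of the 10 genes, 8 matched the RefSeq promoter table (build GRCm38.p6). The 5 windows printed are the 250 bases before the annotated start, 5′ to 3′ on the strand of the gene. They belong to Tubb2a (chr13:34078009-34078258, minus strand), Tubb3 (chr8:123411303-123411552, plus strand) and Tubb4a (chr17:57087601-57087850, minus strand), which were higher in the early group, and to Tubb4b (chr2:25224703-25224952, minus strand) and Tubb5 (chr17:35838302-35838551, minus strand), which did not pass the test. Capitals mark exact matches on either strand to 5 motifs, which can overlap. CAGCTG is an E-box core of the kind bound by proneural factors, and CAGATG is another of that kind. GGGCGG is the GC box, TATAAA is the TATA box, and the CCAAT box is written as its name.
Tubb2a: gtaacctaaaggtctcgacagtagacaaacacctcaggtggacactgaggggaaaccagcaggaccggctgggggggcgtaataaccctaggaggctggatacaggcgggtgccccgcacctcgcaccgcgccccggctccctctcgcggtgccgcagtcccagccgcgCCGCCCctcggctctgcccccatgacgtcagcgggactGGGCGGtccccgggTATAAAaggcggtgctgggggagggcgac
Tubb3: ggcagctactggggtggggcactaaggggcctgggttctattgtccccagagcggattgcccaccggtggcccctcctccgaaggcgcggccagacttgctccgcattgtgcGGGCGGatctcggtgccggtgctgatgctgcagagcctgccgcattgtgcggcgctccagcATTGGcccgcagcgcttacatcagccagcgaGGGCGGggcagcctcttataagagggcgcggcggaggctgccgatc
Tubb4a: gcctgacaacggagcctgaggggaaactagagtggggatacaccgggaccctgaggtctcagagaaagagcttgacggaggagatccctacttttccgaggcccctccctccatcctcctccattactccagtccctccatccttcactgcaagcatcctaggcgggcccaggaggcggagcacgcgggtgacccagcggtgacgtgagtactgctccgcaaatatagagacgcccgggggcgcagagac
Tubb4b: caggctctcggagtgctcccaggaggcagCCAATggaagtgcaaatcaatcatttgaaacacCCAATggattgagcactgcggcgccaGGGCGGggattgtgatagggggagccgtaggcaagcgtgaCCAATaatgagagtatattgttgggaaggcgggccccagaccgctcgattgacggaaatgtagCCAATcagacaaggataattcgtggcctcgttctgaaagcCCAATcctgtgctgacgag
Tubb5: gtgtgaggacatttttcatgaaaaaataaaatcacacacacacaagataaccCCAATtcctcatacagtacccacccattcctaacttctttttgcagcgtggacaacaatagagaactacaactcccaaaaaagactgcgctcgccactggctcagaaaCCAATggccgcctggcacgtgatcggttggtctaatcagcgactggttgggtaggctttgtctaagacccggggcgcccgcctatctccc
Among the 8 tubulin windows, GGGCGG stood in 6, against 32.7% of all 32851 windows of this length, and CCAAT in 4, against 33.8%. Tubb4b held 5 copies of CCAAT and Tubb5 held 2, Tubb3 and Tuba1a held 1 each, and Tubb2a, Tubb4a, Tuba1b and Tuba4a held none. Of these, Tuba1a and Tuba4a did not pass the test, so the copies did not separate the genes that passed from the others. Tubb2b and Tubb6 had no window. TATAAA stood in 1 of the 8 (12.4% of all windows), in Tubb2a at position -29 counted from the start. CAGCTG stood in 1, that of Tuba1b (4271 of all windows), and CAGATG in none (14.4%). The 250 bases before Tubb2a and Tubb3 were 68.4% and 68.0% G or C, and those before Tubb5 49.2%. Tubb4a, which passed, and Tuba4a, which did not, both had 61.6%. For Tuba1b, Tuba1a and Tubb4b the share was 75.6%, 56.8% and 54.4%. These matches describe letters only.

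The comparison of the 2 groups asks which isotypes differ between cells of the Atoh1 lineage marked early and late, seen at 1 age. Beta tubulin signals were higher in the early group for Tubb2a, Tubb2b, Tubb3, Tubb4a and 1 of 2 probe sets of Tubb6, by 1.94-fold to 5.30-fold. No tubulin probe set passed in the other direction. Tubb4b, Tubb5, Tuba1a and Tuba4a did not pass the test. Of the 19 probe sets, 14 passed the filter on low signals and were tested, and these covered all 9 genes. All of them exceeded the array median on at least 5 arrays, so none was tested through 1 group alone. The other 5 lay at or below the array median on all 6 arrays.

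Of the 14, 6 were higher in the early group and 0 in the late group (limma, adjusted over all 23491 tested probe sets). Over all tested probe sets 13.4% passed in the early and 12.5% in the late direction, 25.9% in all. At an unadjusted p under 0.05 the counts were 7 and 0. In 9 of the 14 all early arrays lay above all late arrays, which held for 22.1% of all tested probe sets, and in 0 the reverse (24.8%, so that 46.9% had groups apart). The median log2 difference, early minus late, was 0.52 over the 14 and -0.09 over all tested probe sets. With each gene represented by its brightest probe set, 5 of 9 isotypes were higher in the early group, against 16.2% of all tested genes (30.1% with both directions), and the median was 0.96 against -0.03. The count of 6 was 4 to 6 when any 1 array was left out, and 3 without the filter on low signals.

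**Figure D1:**
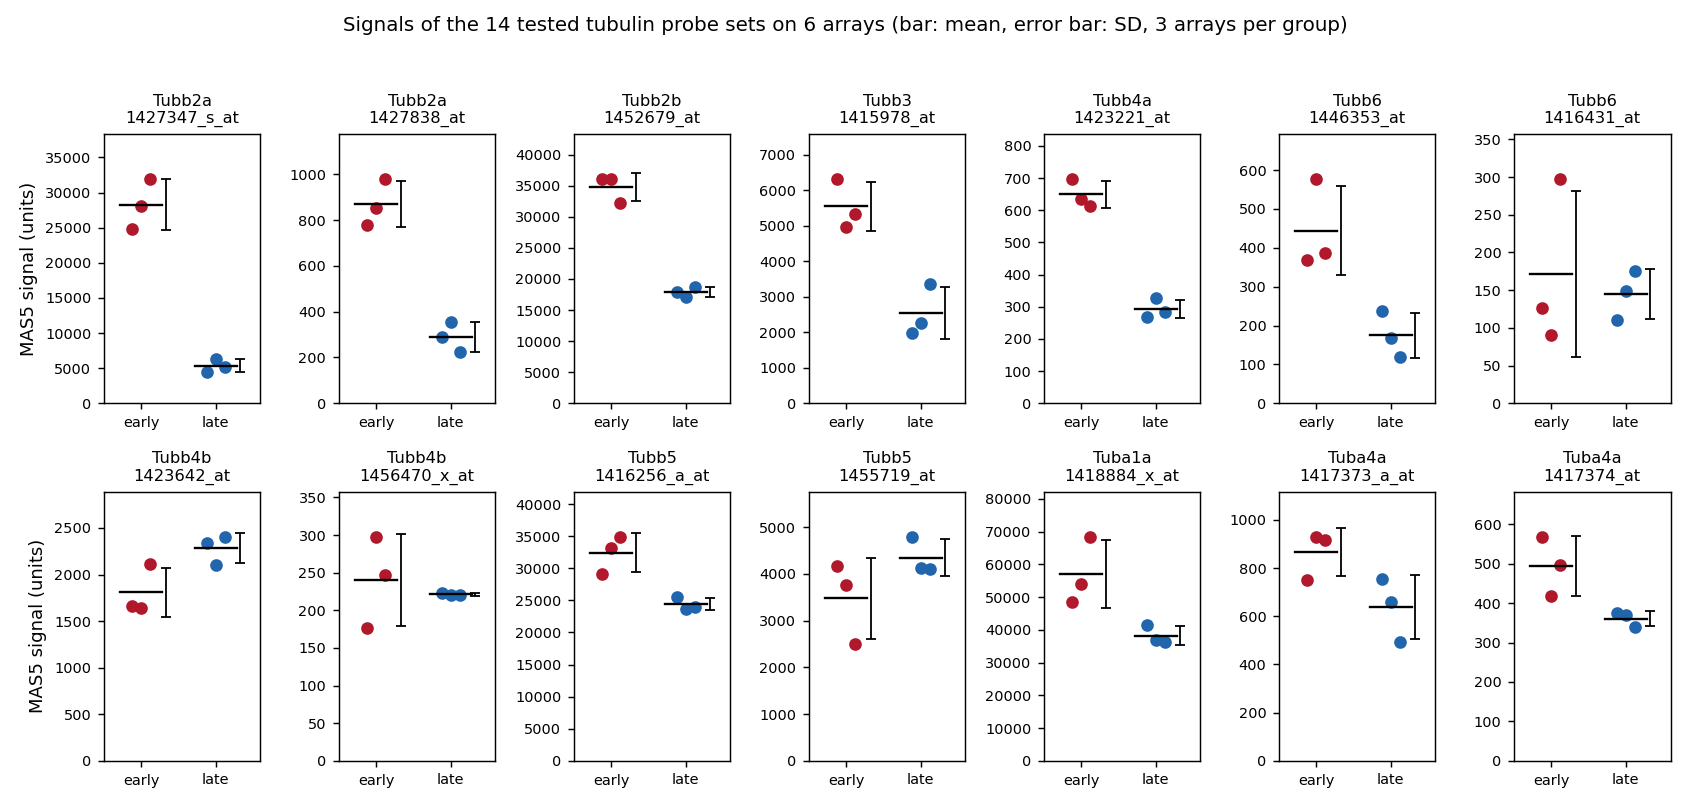
MAS5 signal (units, linear axis from 0) of the 14 tested tubulin probe sets on each array, red for the 3 early and blue for the 3 late arrays, with the mean as a bar and the SD beside it. Both Tubb2a probe sets, Tubb2b, Tubb3, Tubb4a and the brighter Tubb6 probe set show 2 separate groups of points. The brighter Tubb5 probe set, Tuba1a and the second Tuba4a probe set also do, although they did not pass the test. The groups overlap in Tubb4b, the second Tubb5 and Tubb6 probe sets and the brightest of Tuba4a.

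Tubb2a showed the largest difference among the isotypes. Its brighter probe set, of type s, read 24809, 28145 and 31938 units in early arrays against 4518, 6364 and 5196 in late arrays. The lowest early array thus lay far above the highest late one. The means were 28298 ± 3570 and 5359 ± 934 units (SD, n = 3), a log2 difference of 2.41 ± 0.21 (SE) or 5.30-fold (limma adjusted p = 0.00162). The second probe set of Tubb2a, which carries no mark for cross-hybridisation, read 779, 853 and 981 units in early arrays against 290, 356 and 225 in late arrays. Here the groups were also apart, but by less, 3.04-fold (log2 difference 1.61 ± 0.23, limma adjusted p = 0.00562). The direction was thus shared by both probe sets, and the size depended on which was read.

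Tubb2b, which encodes a protein almost identical to that of Tubb2a and in which human mutations disturb cortical folding, differed less. It read 36105, 36073 and 32168 units in early arrays against 17873, 17063 and 18702 in late arrays. The groups did not overlap, and the spread within each was small beside the gap. The log2 difference was 0.96 ± 0.16, or 1.94-fold (limma adjusted p = 0.00968), and it was lost without the filter on low signals (adjusted p = 0.0674). Within single arrays, the log2 ratio of Tubb2a to Tubb2b averaged -0.30 ± 0.27 over early arrays and -1.75 ± 0.29 over late arrays (SD, n = 3), an excess of 1.45 in the change of Tubb2a. All 3 early ratios lay above all 3 late ones (exact two-sided permutation p = 0.1, the smallest that 3 against 3 can give; adjusted over 3 pairs, 0.1). With the unmarked Tubb2a probe set the excess was 0.65.

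Tubb3, the class III isotype used as a marker of neurons, read 6320, 4974 and 5345 units in early arrays against 1982, 2264 and 3363 in late arrays. Late replicate 3 was the highest of its group but stayed below every early array. The log2 difference was 1.16 ± 0.25, or 2.23-fold with a 95% interval of 1.46 to 3.42 (limma adjusted p = 0.0214). The call was lost in 3 of the 6 fits that left out 1 array, with an adjusted p of 0.0513 without early replicate 1, 0.0763 without late replicate 1 and 0.0807 without late replicate 2. It was kept in the other 3, at 0.0335 without early replicate 2, 0.0448 without early replicate 3 and 0.0265 without late replicate 3. It was 0.0896 without the filter and 0.054 with array weights. The log2 difference stayed between 1.00 and 1.38 in the 6 fits that left out 1 array.

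Tubb4a, the class IVa isotype that is abundant in mature brain, had a narrow spread in both groups. It read 698, 636 and 614 units in early arrays against 270, 326 and 285 in late arrays. No late array came near the early ones. The log2 difference was 1.15 ± 0.17, or 2.22-fold (limma adjusted p = 0.00652), and the adjusted p stayed between 0.0138 and 0.0384 when any 1 array was left out.

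Tubb4b, the class IVb isotype, which is found in most tissues and is a main component of cilia, did not pass the test. Its brightest probe set read 1667, 1642 and 2114 units in early arrays against 2342, 2105 and 2408 in late arrays. Early replicate 3 overlapped the late group. The log2 difference of -0.35 ± 0.19 did not pass (limma adjusted p = 0.226), and the 95% interval of the early to late ratio ran from 0.574 to 1.08. A second tested probe set, of type x, had a difference of 0.08 ± 0.24 (limma adjusted p = 0.82), and the remaining 4 lay between 1.25 and 79.6 units, below the filter. The log2 ratio of Tubb4a to Tubb4b averaged -1.47 ± 0.28 over early arrays and -2.96 ± 0.24 over late arrays (SD, n = 3), so that Tubb4a changed by 1.49 more (exact permutation p = 0.1, the smallest possible; adjusted over 3 pairs, 0.1).

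Tubb5, the class I isotype common in dividing cells, gave opposite directions in its probe sets. The brighter one, of type a, read 29068, 33229 and 34934 units in early arrays against 25560, 23711 and 23986 in late arrays. These groups did not overlap, but the log2 difference of 0.40 ± 0.17 did not pass (limma adjusted p = 0.133). The dimmer, unmarked probe set read 4176, 3752 and 2503 units in early arrays against 4799, 4123 and 4114 in late arrays. Here the groups overlapped, and the log2 difference was -0.35 ± 0.25 (limma adjusted p = 0.334). The 95% intervals of the early to late ratio were 0.995 to 1.76 and 0.519 to 1.18. For Tubb5, then, the data gave no settled direction.

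The log2 ratio of Tubb3 to Tubb5 sets the neuronal isotype against the widespread one on the same array. With the brighter Tubb5 probe set, it was -2.20, -2.74 and -2.71 in early arrays against -3.69, -3.39 and -2.83 in late arrays. The groups were narrowly apart, with late replicate 3 nearest to the early values. The change was 0.75 (exact two-sided permutation p = 0.1, the smallest possible; adjusted over 3 pairs, 0.1), and 1.51 with the unmarked Tubb5 probe set.

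Tubb6, the class V isotype, is low in most neurons. Its brighter probe set lay above the array median on all 6 arrays and read 368, 577 and 388 units in early arrays against 236, 167 and 120 in late arrays. The groups were apart (log2 difference 1.37 ± 0.32, 2.59-fold, limma adjusted p = 0.0256). The call was lost without early replicate 2 (adjusted p = 0.0517), late replicate 2 (0.0827) or late replicate 3 (0.0838), and without the filter (0.0934). The dimmer probe set read 126, 91.1 and 298 units in early arrays against 110, 149 and 176 in late arrays. Its groups overlapped (log2 difference 0.08 ± 0.46, limma adjusted p = 0.917), so the probe sets of Tubb6 did not give the same result.

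**Figure D2:**
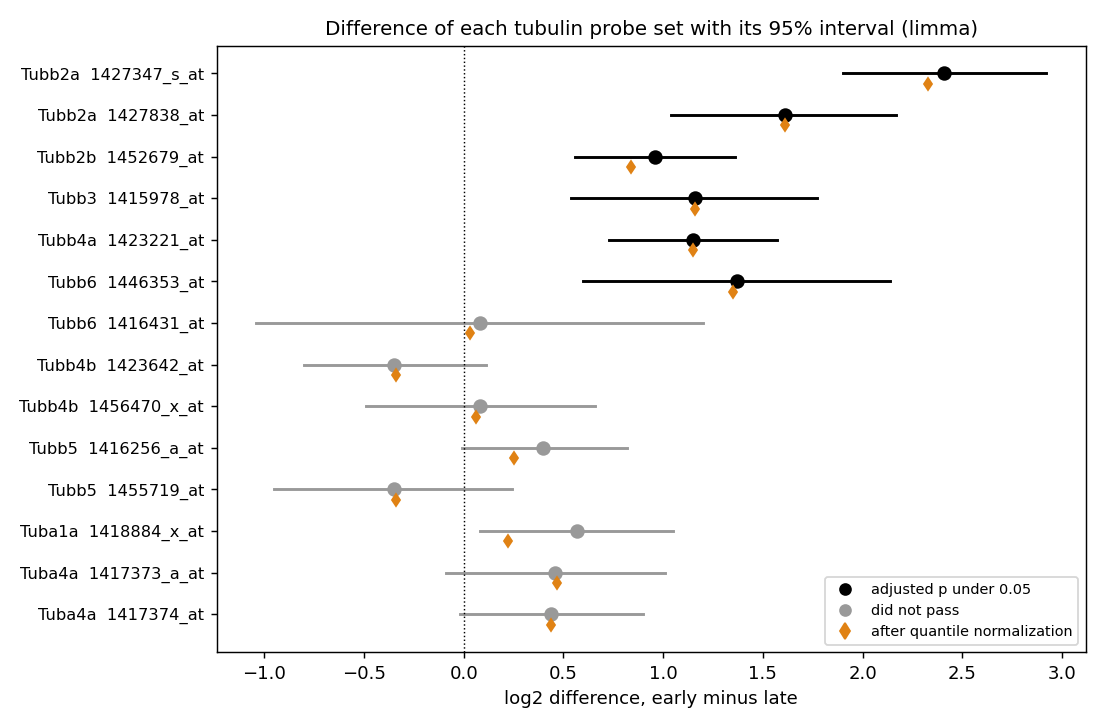
Log2 difference, early minus late, of the 14 tested tubulin probe sets with limma's 95% interval, black where the adjusted p was under 0.05 and grey where it was not, and orange diamonds for the same difference after quantile normalization. The 6 black points lie between 0.96 and 2.41, and the diamond of Tuba1a lies at 0.22 against 0.57.

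Among the alpha tubulins, Tuba1a, the main alpha isotype of migrating neurons and a gene of human lissencephaly, was measured by a single probe set of type x. It read 48546, 54117 and 68490 units in early arrays against 41554, 36906 and 36155 in late arrays. The groups did not overlap, yet the log2 difference of 0.57 ± 0.20 (1.48-fold) did not pass (limma adjusted p = 0.0875). Its signal ranked between 4 and 16 from the top of all probe sets on each array. The highest signal of an array was itself higher in the early group, at 60727 to 86574 units against 42104 to 49170. The 50 brightest tested probe sets, a set chosen after the values were seen, had a median log2 difference of 0.17, which became -0.07 after quantile normalization. That step gives all arrays the same distribution of signals. A shift shared by the brightest probe sets is thus largely removed by the method itself. After that step the difference of Tuba1a was 0.22 ± 0.16 (limma adjusted p = 0.34), whereas with a stricter filter or with trend and robust settings it passed (0.0466 and 0.0103). The same step moved the brighter Tubb5 probe set from 0.40 to 0.25, Tubb2b from 0.96 to 0.84 and the brighter Tubb2a probe set from 2.41 to 2.33.

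Tuba4a, an alpha isotype whose gene encodes no C-terminal tyrosine, read 752, 931 and 918 units in early arrays against 756, 661 and 494 in late arrays with its brightest probe set. Early replicate 1 and late replicate 1 were almost equal, so the groups overlapped. The log2 difference was 0.46 ± 0.23 (limma adjusted p = 0.188). A second probe set read 569, 417 and 496 against 374, 370 and 339 units, with groups apart and a difference of 0.44 ± 0.19 (limma adjusted p = 0.141). The third stayed between 7.25 and 68.8 units and was not tested.

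**Figure D3:**
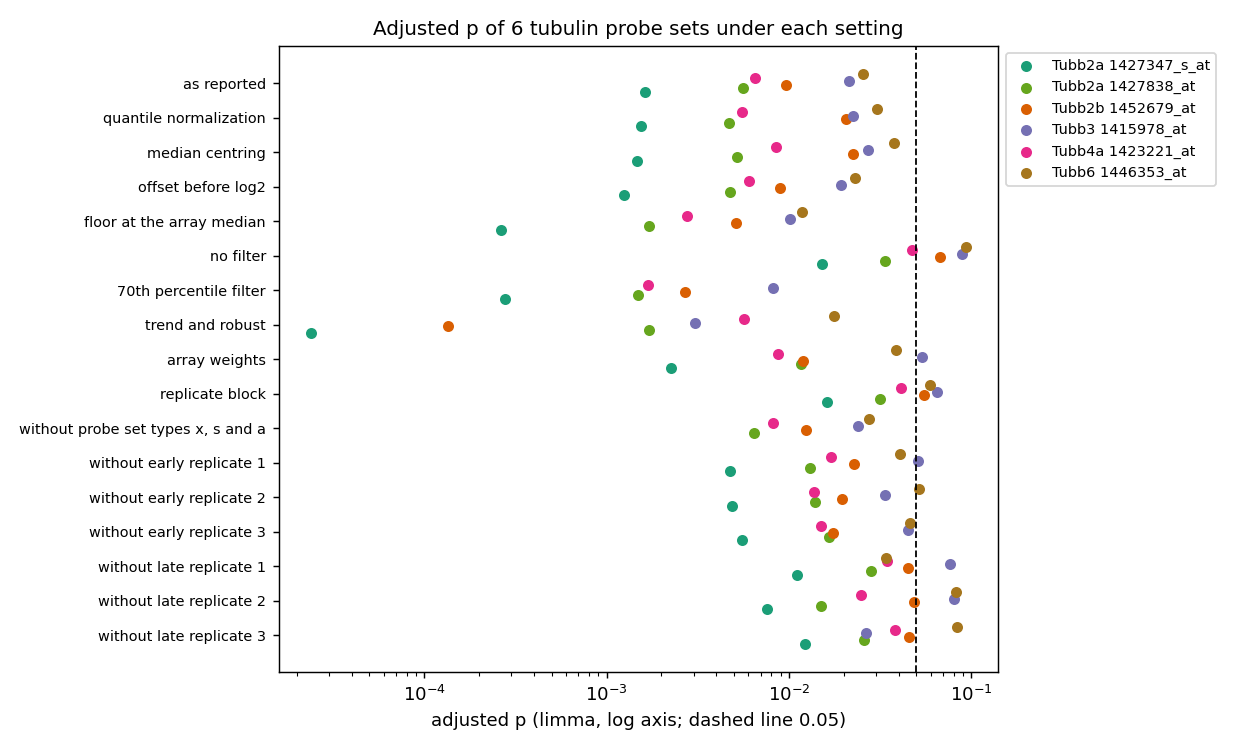
Adjusted p (limma, log axis) of the 6 tubulin probe sets that passed, under the reported setting and 16 alternatives, with a dashed line at 0.05. Both Tubb2a probe sets and Tubb4a stay left of the line in every setting in which they were tested, whereas Tubb3 and Tubb6 cross it in several.

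Of the 10 other tubulin genes listed, 7 had a probe set of their own and 4 were tested. Tubg1 and Tubg2 encode gamma tubulin, which nucleates microtubules, and Tubd1 and Tube1 encode the delta and epsilon tubulins of centrioles. Tubg1 read 811, 895 and 831 units in early arrays against 1448, 1135 and 1191 in late arrays. It was higher on every late array, but with a log2 difference of -0.57 it did not pass after adjustment. Tubg2 read 132, 171 and 136 units in early arrays against 20.3, 2.93 and 36.9 in late arrays, the latter below the array medians (limma adjusted p = 0.0354). It entered the test only through the early arrays, where it is high, so its call is set in part by the filter. With signals raised to the array median its difference was 1.41-fold (limma adjusted p = 0.0871). The call was also lost without any 1 of the 3 early arrays or without late replicate 1 (limma adjusted p = 0.0731 to 0.0781) and with no filter on low signals (0.102). The same held with array weights (0.124), with trend and robust settings (0.0633) and with the replicate number fitted as a block (0.0626). Tubd1 and Tube1 had log2 differences of -0.90 and -0.56 and did not pass. Tuba3b and Tubb1, the platelet isotype, were at or below the median on all arrays, and Tuba8 exceeded it on 1.

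Few genes that fold tubulin passed the test in their brightest probe set. A dimmer probe set passed in the late direction for Cct3 (1 of 6 tested). In the early direction this held for Cct4 (1 of 7) and Tbcel (1 of 2). Of 21 tested members of the prefoldin and CCT chaperones and the tubulin cofactors, 1 was higher in each group (1 and 2 at an unadjusted p under 0.05, limma), against 16.2% and 13.9% of all genes, and the median log2 difference was 0.12. Tbcb, a cofactor of alpha tubulin folding, read 6892, 7012 and 6170 units in early arrays against 3877, 3876 and 4188 in late arrays (1.68-fold, limma adjusted p = 0.022). Cct8, a subunit of the CCT chaperonin, read 3701, 2756 and 3641 against 5612, 5339 and 5555 units (1.65-fold higher in the late group, adjusted p = 0.0384). The call of Tbcb was lost without any 1 late array (limma adjusted p = 0.079 to 0.0872), with median centring (0.0511) and with no filter (0.12). It was also lost with the replicate number fitted as a block (0.0903). That of Cct8 was lost without any 1 array other than early replicate 1 (0.0519 to 0.13), with no filter (0.157) and with that block (0.1).

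Enzymes that modify tubulin were higher in the early group in most cases that passed. Of 17 tested genes, 11 were higher in the early group, against 16.2% of all genes, and 2 in the late group, against 13.9% (limma). The median log2 difference was 0.80, beside -0.03 over all tested genes. Ttll7, a glutamylase that prefers beta tubulin, read 748, 1106 and 1266 units in early arrays against 113, 147 and 154 in late arrays, a 7.43-fold difference (limma adjusted p = 0.00174). Atat1, the acetyltransferase of alpha tubulin, averaged 3546 ± 474 units early and 1028 ± 92.4 units late (SD, n = 3), or 3.44-fold. Ttll1, the catalytic subunit of the tubulin polyglutamylase complex, averaged 7835 ± 462 against 2537 ± 363 units, or 3.11-fold, and Tpgs2 and Nicn1, other subunits of that complex, were also higher in the early group, by 1.86-fold and 2.29-fold. Ttll4, another glutamylase that starts side chains, went the other way, at 600 ± 131 against 1623 ± 149 units (2.74-fold, limma adjusted p = 0.00649). Ttl, which returns the terminal tyrosine, and Vash2 with its partner Svbp, which remove it, were all higher in the early group, by 1.65-fold, 2.59-fold and 1.74-fold. These values are those of each gene's brightest probe set. Those of Ttll1 and Tpgs2 are of type x and that of Ttl is of type s, so they can cross-hybridise. Only 1 of 4 tested probe sets of Atat1, 1 of 3 of Ttll4 and 1 of 2 of Ttll1 passed, as did 2 of 4 of Tpgs2, 2 of 3 of Ttl and 2 of 2 of Nicn1.

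Genes of microtubule nucleation were higher in the late group where their brightest probe set passed. Tested members of the gamma tubulin complex, its anchors and the augmin complex numbered 17. Of these, 6 were higher in the late group, against 13.9% of all genes, and 0 in the early group. At an unadjusted p under 0.05 the counts were 7 and 0 (limma), and the median log2 difference was -0.57. Not in the brightest, but in 1 of 3 tested probe sets, Mzt1 passed in the early and Tubgcp4 in the late direction. Nedd1, which anchors the gamma tubulin complex, read 205, 84.0 and 99.3 units in early arrays against 771, 811 and 908 in late arrays (6.92-fold, limma adjusted p = 0.00384), and its second tested probe set did not pass. Haus1 and Haus6, subunits of augmin, which branches microtubules in the spindle, were 2.92-fold and 4.42-fold higher. Early values of Nedd1 and Haus6 lay partly below the array medians, and with signals raised to the median the folds were 6.31 and 3.24. The call of Haus6 was lost without any 1 array other than early replicate 1 (limma adjusted p = 0.0683 to 0.109) and with the replicate number fitted as a block (0.0717). Neither augmin subunit passed with no filter (0.105, and 0.0513 for Haus1). Cdk5rap2, a centrosomal activator of nucleation, averaged 177 ± 39.4 against 9.05 ± 10.2 units, the latter below the array medians, and was 1.63-fold higher with signals raised to the median. It entered the test only through the late arrays, where it is high, so 1 of the 6 late calls of this list is set in part by the filter. The markers of cycling progenitors given above moved in the same direction, and their part in this result was not tested.

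Genes acting on microtubule ends or cutting the lattice were mixed. Of 14 tested, 5 passed with higher signals early (16.2% of all genes) and 1 with higher signals late (13.9%; limma), with a median of 0.53. Fign and Fignl1, related severing enzymes, moved in opposite directions. Fign read 1579, 2370 and 1340 units in the early and 152, 204 and 93.6 units in the late arrays (log2 difference 3.58, limma adjusted p = 0.00213). Fignl1, which also acts in DNA repair, read 335, 151 and 337 against 2297, 1853 and 1904 units (7.80-fold higher in the late group, adjusted p = 0.00317). Clasp2 and Mapre2, proteins of growing plus ends, were 2.85-fold and 2.44-fold higher after early labelling in their brightest probe sets, with 1 of 3 tested probe sets of Clasp2 and 2 of 4 of Mapre2 passing.

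**Figure D4:**
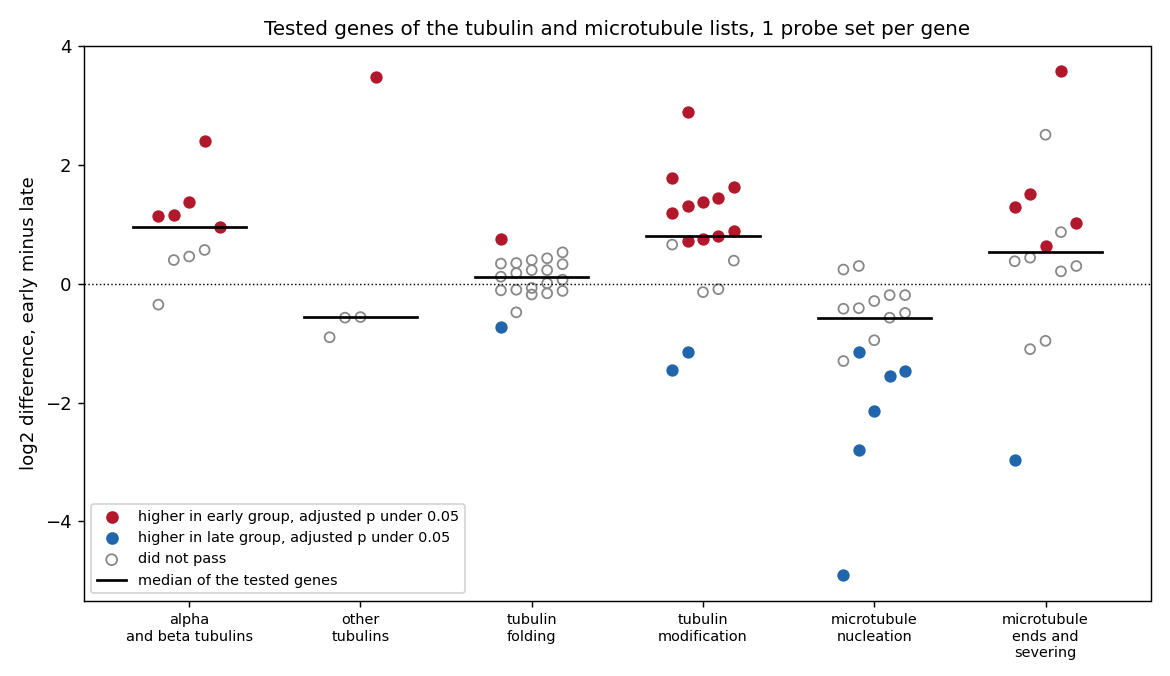
Log2 difference, early minus late, of each tested gene in the tubulin and microtubule lists, 1 point per gene, filled red or blue where the adjusted p was under 0.05 and open where it was not, with a bar at the median. The 9 alpha and beta isotypes have their median at 0.96, the modifying enzymes at 0.80, and the nucleation genes at -0.57.

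The genes whose 6 log2 signals ran most nearly parallel to those of Tubb3 were Rnasek, Tmem169, Psd, Eml2 and Adam19, with Pearson correlations of 0.992 to 0.998 over the 6 arrays. Eml2 encodes a microtubule-associated protein and entered the test only through the early arrays. All 5 were higher in the early group and, like Tubb3, had late replicate 3 as the highest late array. Both traits were largely set in advance, because the genes were picked by their correlation with Tubb3. For the brighter Tubb5 probe set they were Ypel5, Actg1, Zbtb6, Slc2a3 and Gde1 (0.995 to 0.997). Of these Slc2a3, a neuronal glucose transporter, and Gde1 passed the test, while Actg1, cytoplasmic gamma actin, had a log2 difference of 0.44 and did not (limma adjusted p = 0.106). These points share arrays and the 2-group layout, so the correlations are a description only.

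Markers of other cell types that the sorted fraction could hold were also read. Of 8 microglia markers 2 were tested, 1 of which, Csf1r, was higher in the early group, and Aif1, C1qa and C1qc were at or below the median on all arrays. The 7 endothelial markers summed to 457 to 2657 units in early and 338 to 1583 units in late arrays, with Pecam1 and Cdh5 at or below the median throughout. Of 5 measured markers of GABAergic neurons, which also express tubulins, 3 were tested. Gad1 and Gad2 were 2.63-fold and 3.23-fold higher after early labelling, while Slc32a1 did not pass (limma adjusted p = 0.194). The 5 summed to 832 to 1529 against 300 to 500 units, with Slc6a5 at or below the median on all arrays. Of 4 tested oligodendrocyte lineage markers 2 passed with higher signals early and 1 late, with sums of 2708 to 3143 against 864 to 1110 units. Of 5 tested radial glia and astrocyte markers 2 passed in each direction, with a median log2 difference of 0.89. Of the 2 higher early, Aldh1l1 entered the test only through the early arrays. Their sum, 20290 to 22629 against 28368 to 34717 units, is dominated by Vim (12235 ± 486 early and 25962 ± 2640 late), with Gfap and Aqp4 at or below the median throughout. Of 5 tested Purkinje cell markers 1, Calb1, was higher in the early group, at 1756, 1368 and 836 against 150, 134 and 88.5 units. The 7 Purkinje cell markers together summed to 4040 to 7626 units in early and 3116 to 3324 units in late arrays. No tested marker of mesenchyme passed (sum of the list 728 to 2629 against 355 to 1097 units), nor did the 1 tested erythroid marker. The sum of the erythroid list varied widely among early arrays (116 to 4753 against 304 to 418 units). The part of these cells in the tubulin differences was not tested. Of the 5 ciliated cell markers 3 were tested, and the 1 called, Dnah9, was higher in the early group but entered the test only through the early arrays; Foxj1, the defining factor, was at or below the median on all arrays.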

How the data were processed

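The deposited values are intensities on a linear scale. The submitters' processing notes name MAS5, and its version is not given in the sources used here. Each array's mean signal without the lowest and highest 2% is equal between arrays, which hides any change in total RNA. Probe sets were named from the platform annotation given: 34958 had 1 symbol, 932 several and 9211 none. Log2 signals of the early and late groups were compared with limma 3.58.1 (lmFit, eBayes) in R 4.3.3, two-sided, with Benjamini-Hochberg adjustment over all tested probe sets calling below 0.05. Tests covered probe sets above the median signal (percentile 50) on 3 or more of the arrays, without control probe sets. Fits without 1 array kept this set of probe sets. Folds are 2 to the power of the log2 difference. A gene of a list was represented by its brightest own probe set, by mean log2 signal. Several probe sets were tested for 33 of the list genes, and 0 of these had calls in both directions. In some of these genes only the brightest passed, and in others only a dimmer one. Within-array ratios were set for 4 pairs, and the pair of Tuba1a and Tuba1b could not be formed. All members were named, and in each list up to 4 genes of largest difference among those that passed, all of the other tubulins, and the 5 genes most correlated with Tubb3 and with Tubb5; the further subunits and enzymes of tail modification (Tpgs2, Nicn1, Ttl, Vash2 and Svbp) and markers were chosen after their values were seen. The members and lists were chosen with earlier results of these data known. The test was checked on simulated data. Alternatives were other normalizations, an offset of 5.97 units, a floor, other filters (none, or percentile 70), variance settings, array weights, the replicate block, unmarked probe sets and leaving out each array.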

Additional observations from a re-analysis of the deposited data

How the results depend on the processing

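Of 216 alternative fits of single tubulin probe sets, 197 kept direction and side of the threshold, 13 lost and 3 gained a call, and 3 turned direction. Those that turned had not passed: without 1 array, the second Tubb6 probe set ranged from -0.41 to 0.44 and the second tested Tubb4b probe set from -0.09 to 0.29 (log2). The 6 tubulin calls became 3 without a filter, where 2719 rather than 6094 probe sets passed. More were tested there, and the SE of Tubb2b rose from 0.16 to 0.22 and that of Tubb3 from 0.25 to 0.30; these effects were not separated. Leaving out 1 array gave 4 to 6 tubulin calls and 2937 to 5847 probe sets in all, with 3107, 3338 and 2937 without late replicates 1, 2 and 3. Same-numbered arrays did not deviate together (correlations -0.0748 to -0.00517), which cannot show whether the numbers pair samples. With the replicate number fitted as a block, 3 tubulin probe sets and 3590 in all passed. The calls of Tubb3, Tubb2b and the brighter Tubb6 probe set were then lost (limma adjusted p = 0.0651, 0.0554 and 0.0591). Over unmarked probe sets the pair differences became 1.51 for Tubb3 minus Tubb5 and 0.65 for Tubb2a minus Tubb2b, and over the mean of all probe sets 1.13 and 1.05; that of Tubb4a minus Tubb4b moved by less than the spread between arrays. Signals near background limit the folds of dim genes: raised to the array median, the log2 difference of Cdk5rap2 went from -4.91 to -0.70 and that of Tubg2 from 3.48 to 0.50, while that of the brighter Tubb6 probe set stayed at 1.37.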

Other observations

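The probe set listed for both Tuba1b and Gm5620, and therefore assigned to neither, read 41157, 44778 and 52461 units in the early and 37652, 35991 and 32666 units in the late arrays. That listed for both Tuba1a and Gm6682 read 82.3, 129 and 129 units early and 85.7, 98.8 and 34.8 units late. The probe set listed for both Tubb2b and Tubb2a-ps2 read 280, 531 and 386 units in the early and 274, 184 and 277 units in the late arrays.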
